A study of Mus musculus with 9 samples.

Results

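Triglyceride, the neutral fat that cells keep in lipid droplets, is made and broken down by a short chain of enzymes, and 10 genes of this chain were followed in cultured mouse osteoblasts, the cells that form bone. They are Dgat1, Dgat2, Acsl4, Scd1 and Scd2 on the synthesis side, Pnpla2, Abhd5, Lipe and Mgll on the breakdown side, and Plin2, which coats the droplets. The genes were picked with the values of one comparison in view. Dgat1 was selected on its difference between hPTH(1-34) and vehicle. The other 9 were set beside it for their roles, but with that comparison already known, so their values in it are a description too. Each gene was read from its transcript cluster, a group of probes for one transcript region, with a single annotated symbol and the highest mean over the 9 arrays. Of the 10 genes 9 had such a cluster, out of 22180 genes in all, and each of the 9 had only 1. The cluster of Scd2 also carries a second symbol, so Scd2 was not analysed here.

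The cells were primary calvarial cells of C57BL/6J mice aged 7 to 10 days, taken out of the skull cap by enzyme digestion and used at passage 2. All 3 groups were brought to differentiate from day 3 in medium with beta-glycerophosphate and ascorbic acid, and all lost their serum on day 10, for 24 h. They then received vehicle, 100 nM of human parathyroid hormone (1-34), called hPTH(1-34), or 1 µM of the (D-Trp12,Tyr34) form of bovine parathyroid hormone (7-34), an amide called bPTH(7-34) here, for 4 h, with 3 arrays in each group. The series text says that replicates were independent cell preparations, but not whether vehicle and peptides shared one. The receptor of parathyroid hormone raises cAMP when hPTH(1-34) activates it, and bPTH(7-34) is known as an antagonist of that rise. Their doses differed, so their values stand side by side here and give no comparison at matched dose.

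Values are log2 RMA levels, so a difference of 1 is a 2-fold difference, and levels of different genes are not set against each other, since their probes differ. Array medians ran from 1.67 to 1.76, and correlations over all clusters were 0.972 to 0.985 between any 2 arrays. Background was gauged from 1105 genes of olfactory receptors, whose mean vehicle level was under 1.69 in 95% of cases, a limit set after seeing the data. The osteoblast label was checked against 10 measured markers. The bone collagen gene Col1a1 averaged 12.3 with vehicle and the mineralisation phosphatase gene Alpl 5.50, while Bglap, Sp7 and Dmp1 lay under the background limit. In such bulk cultures, fewer cells of a type and less RNA per cell cannot be told apart.

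As background, fatty acids are first joined to coenzyme A by acyl-CoA synthetases such as Acsl4, and stearoyl-CoA desaturases such as Scd1 put a double bond into saturated ones. Diacylglycerol acyltransferases then add the last fatty acid to diacylglycerol, a step that the unrelated proteins of Dgat1 and Dgat2 can both perform. Breakdown removes the fatty acids in turn: Pnpla2 (also called ATGL) cuts triglyceride with the help of its coactivator Abhd5 (CGI-58), Lipe (hormone-sensitive lipase) cuts diacylglycerol, and Mgll cuts monoacylglycerol. cAMP and protein kinase A are known to start this breakdown in fat cells, and osteoblasts are known to burn fatty acids as fuel.

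Of the genes that make triglyceride, Dgat1 stood far apart. Its log2 levels were 4.63, 4.47 and 4.48 on vehicle arrays 1, 2 and 3. They were 7.57, 8.48 and 8.66 with hPTH(1-34), and 5.15, 4.65 and 4.78 with bPTH(7-34). Every hPTH(1-34) array lay above every array of the other groups, and array 1 was the lowest of the hPTH(1-34) arrays although it was the highest in the other groups. The difference between hPTH(1-34) and vehicle was 3.71 ± 0.26 (SE, n = 3 per group) on the log2 scale, or 13.1-fold with a 95% interval from 8.77 to 19.5. By size it ranked 1 among the rises of 23521 clusters. As this is the value that the gene was chosen for, it stands as a description, and no p is given for it. The spread of Dgat1 was 0.09 (SD) with vehicle and 0.58 with hPTH(1-34).

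Dgat2, the other enzyme of the last step, showed no such separation. Its levels were 6.85, 5.84 and 5.48 with vehicle, 7.04, 6.25 and 6.12 with hPTH(1-34), and 6.33, 6.41 and 5.73 with bPTH(7-34). The 3 groups overlapped throughout, and the arrays within vehicle lay further apart than the group means. The difference of hPTH(1-34) from vehicle was 0.41 ± 0.37 (SE), with a 95% interval from -0.41 to 1.24. With 1 array left out it ran from 0.125 to 0.81.

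Acsl4, an acyl-CoA synthetase that prefers arachidonic acid, gave 6.59, 5.91 and 6.19 with vehicle, 7.68, 7.91 and 7.86 with hPTH(1-34), and 6.44, 6.31 and 5.82 with bPTH(7-34). The hPTH(1-34) arrays lay above all others, and vehicle and bPTH(7-34) overlapped. The change after hPTH(1-34) was 1.59 ± 0.20 (SE), or 3.00-fold (95% interval 2.20 to 4.10).

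Scd1 gave 7.17, 6.57 and 6.52 with vehicle, 7.89, 7.71 and 7.85 with hPTH(1-34), and 7.21, 6.78 and 6.95 with bPTH(7-34). Its hPTH(1-34) arrays were again the top 3, with a change of 1.06 ± 0.18 (SE), or 2.09-fold (1.58 to 2.77). Within each group the array numbered 1 was the highest.

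**Figure D1:**
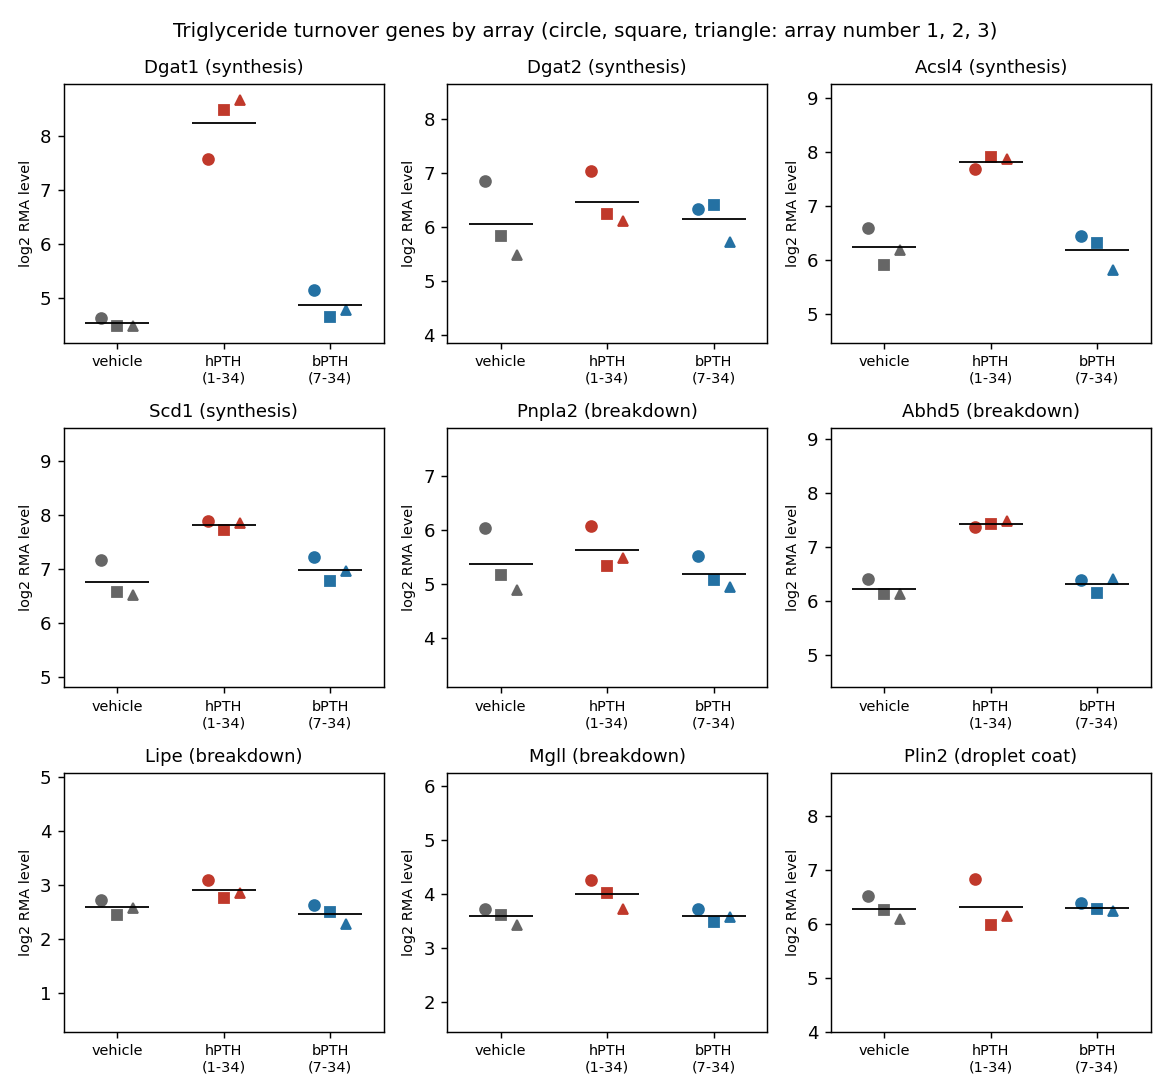
Log2 RMA level of the 9 measured genes on each array (points; circle, square and triangle are array numbers 1, 2 and 3) by group, with the group mean as a line; all panels span the same number of log2 units. Dgat1 is between 7.57 and 8.66 with hPTH(1-34) and between 4.47 and 5.15 in the other groups, and Acsl4, Scd1 and Abhd5 show smaller separations.

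On the breakdown side, the largest difference belonged to the coactivator and not to a lipase. Abhd5 gave 6.41, 6.13 and 6.13 with vehicle, 7.38, 7.43 and 7.48 with hPTH(1-34), and 6.40, 6.16 and 6.41 with bPTH(7-34). The hPTH(1-34) arrays lay close together and above the rest, and the other groups overlapped. The change was 1.21 ± 0.11 (SE), or 2.31-fold (1.94 to 2.75), and on the log2 scale its interval was the narrowest of the 9 genes.

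Pnpla2, the lipase that Abhd5 activates, gave 6.05, 5.18 and 4.90 with vehicle, 6.09, 5.35 and 5.49 with hPTH(1-34), and 5.52, 5.09 and 4.96 with bPTH(7-34). The groups overlapped, and array 1 was the highest in each of them. The change after hPTH(1-34) was 0.27 ± 0.30 (SE), with an interval from -0.42 to 0.95, and from 0.03 to 0.60 with 1 array left out.

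Lipe lay low, between 2.27 and 3.09 on all arrays. Its levels were 2.73, 2.44 and 2.58 with vehicle and 3.09, 2.76 and 2.85 with hPTH(1-34), so that these groups were apart by only 0.03. The change was 0.32 ± 0.13 (SE). Mgll gave 3.73, 3.61 and 3.44 with vehicle and 4.27, 4.03 and 3.73 with hPTH(1-34), touching at 3.73, with a change of 0.42 ± 0.15 (SE). The 95% intervals ran from 0.02 to 0.61 for Lipe and from 0.09 to 0.74 for Mgll.

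Plin2, the droplet coat protein found in most cell types, showed no clear change. It gave 6.51, 6.25 and 6.09 with vehicle, 6.83, 5.97 and 6.14 with hPTH(1-34), and 6.38, 6.28 and 6.24 with bPTH(7-34). The change after hPTH(1-34) was 0.03 ± 0.21 (SE), and its interval from -0.44 to 0.50 leaves room for a change of up to 1.41-fold.

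Counted together, 9 of 9 genes had a positive change after hPTH(1-34), with a median of 0.42 against 0.00 over all clusters. As a description of the same contrast that chose the genes, 4 of them (Dgat1, Acsl4, Scd1 and Abhd5, all higher) passed limma's threshold of 0.05, adjusted by the Benjamini-Hochberg method over all clusters, where 0.31% of the 23521 clusters were called higher. For 5 of them, the same 4 and Lipe, all hPTH(1-34) arrays lay above all vehicle arrays, where 6.08% of clusters did so. Nothing is read from these counts. The calls also hung on single arrays: without vehicle array 2 or 3 none of the 9 passed, 0 in each fit, and without hPTH(1-34) array 2 or 3 Dgat1 alone did. The sizes held better, with Dgat1 at 3.50 to 4.04, Acsl4 at 1.43 to 1.77, Abhd5 at 1.16 to 1.30 and Scd1 at 0.95 to 1.27 when 1 array was left out. A fit of only the 6 arrays of these groups called 0 of the 9, one of all 41345 clusters called Dgat1 and Abhd5, and without hPTH(1-34) array 1, or with the arrays shifted to one median, Scd1 was not called.

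The promoters show what sequence lies before the starts of these genes. RefSeq's promoter table (build GRCm38.p6, 250 bases before to 50 after a start) held 6 of the 10 genes, namely Acsl4, Pnpla2, Abhd5, Lipe, Mgll and Plin2, with 8 starts. Both strands were searched for TGACGTCA, the whole cAMP response element that the factor CREB binds, for its shorter form TGACG, which lies inside the whole one, and for AAAGGTCA, the element of the NR4A nuclear receptors. The whole element was in 0 of these 8 promoters, against 1.79% of all 32851 promoters in the table, and so was AAAGGTCA, against 1.51%. The short form was in the promoters of Acsl4 and Abhd5, once each and on the strand of the gene, 119 and 128 bases before the start. It was also 20 bases after 1 of the 2 starts of Mgll, on the other strand, and in none of the promoters of Pnpla2, Lipe and Plin2. As 20.8% of all promoters hold it, and a match in letters is not a binding site, this is a description alone. The promoters of Acsl4 and Abhd5, which were higher after hPTH(1-34), and of Pnpla2, the lipase beside Abhd5, are shown 5′ to 3′ on the strand of the gene, with TGACG in capitals.
Acsl4 (chrX:142390486-142390785, minus strand): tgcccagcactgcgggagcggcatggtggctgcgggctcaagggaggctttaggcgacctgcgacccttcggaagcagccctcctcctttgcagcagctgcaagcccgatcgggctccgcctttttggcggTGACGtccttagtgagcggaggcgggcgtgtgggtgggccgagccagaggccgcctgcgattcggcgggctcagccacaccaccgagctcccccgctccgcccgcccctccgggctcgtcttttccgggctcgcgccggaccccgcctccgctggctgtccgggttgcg
Abhd5 (chr9:122351366-122351665, plus strand): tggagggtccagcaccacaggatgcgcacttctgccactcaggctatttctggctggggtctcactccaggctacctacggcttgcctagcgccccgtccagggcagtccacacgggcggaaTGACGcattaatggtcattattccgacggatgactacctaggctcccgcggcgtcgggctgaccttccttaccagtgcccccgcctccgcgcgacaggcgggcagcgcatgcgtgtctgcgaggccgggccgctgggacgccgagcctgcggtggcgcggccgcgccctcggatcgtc
Pnpla2 (chr7:141454938-141455237, plus strand): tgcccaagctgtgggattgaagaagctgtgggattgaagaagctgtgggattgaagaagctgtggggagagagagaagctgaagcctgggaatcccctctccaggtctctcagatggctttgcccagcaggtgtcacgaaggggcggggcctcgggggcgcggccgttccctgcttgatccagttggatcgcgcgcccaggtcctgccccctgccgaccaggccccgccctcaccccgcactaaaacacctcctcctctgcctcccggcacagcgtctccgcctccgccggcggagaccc

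The next comparison asked whether bPTH(7-34) changed the same genes. It was not used to choose them, though it shares the vehicle arrays. None of the 9 passed limma's test, and the smallest unadjusted p among them was 0.225, while 0% of the 23521 clusters were called higher and 0% lower, with 780 clusters at an unadjusted p under 0.05. Adjusted p was 0.999 for each of the 9 genes. Dgat1 gave 0.33 ± 0.26 (SE), with a 95% interval from -0.24 to 0.91. This SE also holds the spread of the hPTH(1-34) arrays, at 0.58 (SD) against 0.09 with vehicle and 0.26 with bPTH(7-34). In a limma fit of only the 6 arrays of this comparison, the SE was 0.14, the unadjusted p 0.0557 and the adjusted p 0.9985. Its lowest bPTH(7-34) array, at 4.65, lay 0.02 above its highest vehicle array. It was the only 1 of the 9 genes whose bPTH(7-34) arrays were all above vehicle, which 2.9% of clusters were.

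The other synthesis genes gave 0.10 (95% interval -0.73 to 0.93) for Dgat2, -0.04 (-0.49 to 0.41) for Acsl4 and 0.23 (-0.18 to 0.63) for Scd1. Among the breakdown genes, Abhd5 gave 0.10 (-0.15 to 0.35), Pnpla2 -0.19 (-0.87 to 0.50), Lipe -0.12 (-0.41 to 0.18) and Mgll 0.01 (-0.32 to 0.33). Plin2 gave 0.02 (-0.45 to 0.48). These intervals hold 0 in all 9 genes but are wide for Dgat2 and Pnpla2, and they do not show that the peptide left the genes unchanged.

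Set directly beside each other, at their different doses, hPTH(1-34) exceeded bPTH(7-34) by 3.38 ± 0.26 (SE) for Dgat1, 1.63 ± 0.20 for Acsl4, 1.11 ± 0.11 for Abhd5 and 0.84 ± 0.18 for Scd1. This difference rests on the same hPTH(1-34) arrays as the one with vehicle and adds no independent evidence. The first 3 of these genes passed limma's threshold, where 0.332% of clusters were called higher, and 5 of the 9 had no overlap, where 5.99% of clusters lay higher without overlap. With any one of arrays 2 and 3 of either peptide left out, Dgat1 alone passed.

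**Figure D2:**
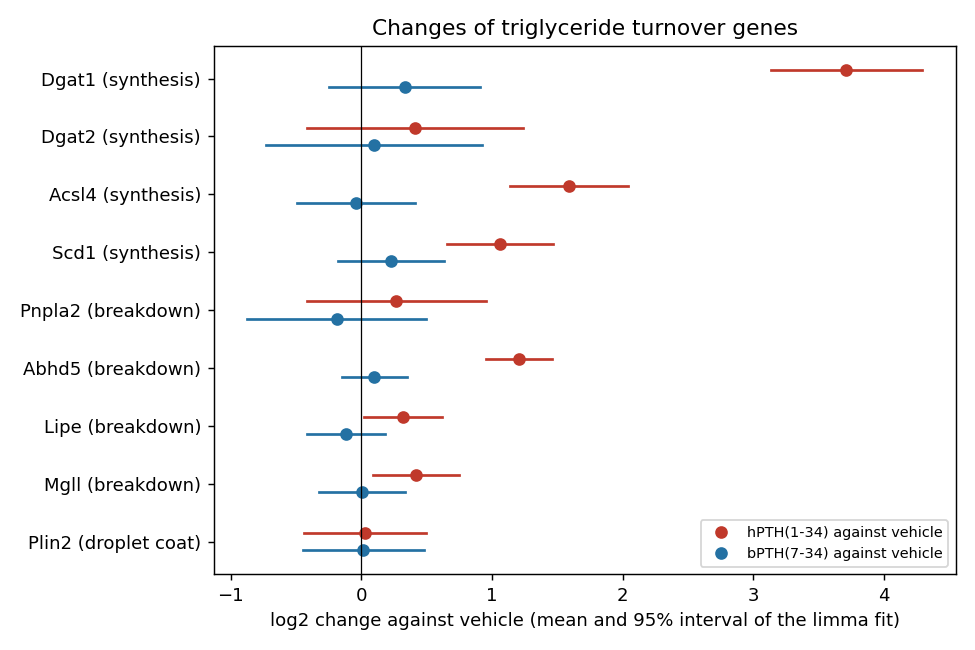
Log2 change of each gene against vehicle after hPTH(1-34) (red) and bPTH(7-34) (blue), as the limma estimate (point) with its 95% interval (line). All 9 blue intervals include 0, and the red interval of Dgat1 runs from 3.13 to 4.29.

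Synthesis was then set against breakdown on each array. Every gene was centred on its vehicle mean, and the mean of the 4 measured synthesis genes was compared with that of the 4 breakdown genes. After hPTH(1-34) the synthesis mean was 1.69 ± 0.04 (SD, n = 3) and the breakdown mean 0.55 ± 0.18, so that both sides were above vehicle. This 0.04 is no measure of the spread of single genes, as Dgat1 was lowest and Dgat2 highest on hPTH(1-34) array 1. Without Dgat1 the SD of the hPTH(1-34) synthesis mean was 0.15. With all 4 genes it was 0.36 with vehicle and 0.23 with bPTH(7-34). Synthesis minus breakdown was 0.89, 1.25 and 1.29 on the hPTH(1-34) arrays, 0.13, -0.09 and -0.04 on the vehicle arrays, and 0.27, 0.28 and 0.07 on the bPTH(7-34) arrays. The hPTH(1-34) values lay above all others. Much of this gap was Dgat1. Without it the hPTH(1-34) arrays were at 0.43, 0.50 and 0.49, the vehicle arrays at 0.24, -0.14 and -0.10, and the bPTH(7-34) arrays at 0.19, 0.29 and -0.04. The hPTH(1-34) mean was 1.14 ± 0.22 (SD) with Dgat1 and 0.47 ± 0.04 without it. The genes also differed within each side, from 0.41 for Dgat2 to 3.71 for Dgat1 in synthesis, and from 0.27 for Pnpla2 to 1.21 for Abhd5 in breakdown. The genes were chosen with hPTH(1-34) against vehicle known, so these sums describe that contrast, with or without Dgat1. No test was made of them.

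**Figure D3:**
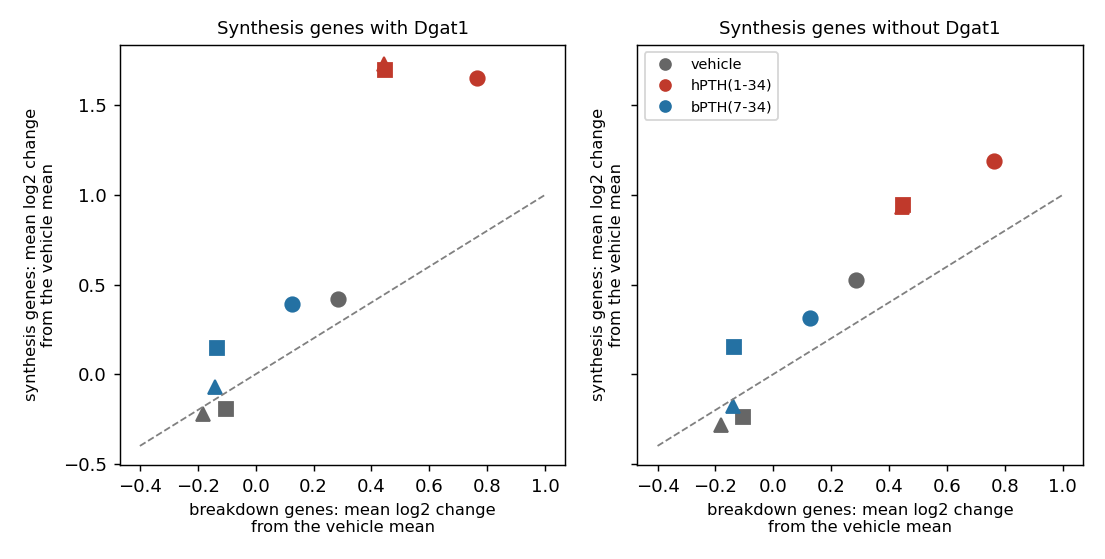
Mean log2 change from the vehicle mean of the synthesis genes (vertical) against the breakdown genes (horizontal), 1 point per array, with Dgat1 (left, 4 synthesis genes) and without it (right, 3); grey is vehicle, red hPTH(1-34) and blue bPTH(7-34), shapes are array numbers as in the plot of levels, and the dashed line marks equal change. The hPTH(1-34) arrays are 0.89 to 1.29 above the line with Dgat1 and 0.43 to 0.50 above it without.

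The array number moved with several of these genes whatever the treatment. The array numbered 1 was the highest of its group in all 3 groups for Scd1, Pnpla2, Lipe, Mgll and Plin2, and over the groups Pnpla2 averaged 5.89 on arrays numbered 1 against 5.21 and 5.12 on the others. Dgat2 averaged 6.74 on arrays numbered 1 against 6.17 and 5.78. Dgat1 was highest on the array numbered 1 with vehicle and bPTH(7-34) but lowest there with hPTH(1-34), and Abhd5 was highest on it with vehicle alone. With the array number as a fixed block, the SE of the change after hPTH(1-34) was 0.20 instead of 0.37 for Dgat2. For Pnpla2 it was 0.14 instead of 0.30, and neither gene passed limma's threshold. The labels do not say what the numbers stand for.

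Markers of fat cells moved in the same way. The mean of 11 measured adipocyte markers (of 12 listed, Lipe among them) was 3.63, 3.24 and 3.26 on vehicle arrays 1, 2 and 3, 3.98, 3.41 and 3.78 with hPTH(1-34), and 3.63, 3.32 and 3.55 with bPTH(7-34), so that it was highest on array 1 in each group. After hPTH(1-34) 10 of the 11 had positive changes and 0 passed limma's threshold, where 106 of 23521 clusters did. Of the 11, 2, Lep among them, lay under the background limit with vehicle. The fatty acid carrier Fabp4, at 7.38 ± 0.28 (SD) with vehicle and 8.23 ± 0.47 with hPTH(1-34), and the hormone gene Adipoq, at 4.15 ± 0.76 and 4.53 ± 0.49, were well above that limit. With bPTH(7-34) Fabp4 was at 7.74 ± 0.34 and Adipoq at 4.55 ± 0.51. The groups of Adipoq overlapped, and its change after hPTH(1-34) was 0.38 ± 0.40 (SE), so no rise is read from it. Pparg, at 4.97 ± 0.17 and 4.98 ± 0.26, and Retn, at 2.91 ± 0.28 and 2.88 ± 0.32, were also above it but showed no rise. The mean of the measured osteoblast markers was instead lowest on array 1 in each group. It was 5.38, 5.71 and 5.69 on vehicle arrays 1, 2 and 3, 5.45, 5.88 and 5.82 with hPTH(1-34), and 5.49, 5.78 and 5.75 with bPTH(7-34). Among these markers 0 passed after hPTH(1-34). Alpl gave 0.97 ± 0.17 (SE, limma adjusted p = 0.0601), Col1a1 0.00 ± 0.11 and Pth1r, the gene of the hormone's receptor, -0.35 ± 0.19. The 8 macrophage markers averaged from 4.05 to 4.94 on the vehicle arrays, 3.53 to 5.15 with hPTH(1-34) and 3.72 to 4.75 with bPTH(7-34), and 0 passed. Blood, endothelial and skeletal muscle markers averaged between 1.40 and 2.59 on every array, and 0 of them passed. The part of these cells in the levels of the triglyceride genes was not tested.

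The rest of lipid metabolism was read from 7 lists of 130 genes, 117 of them measured. The triglyceride genes above are left out of these lists, and both were chosen with earlier results known. The counts and medians of the lists are therefore no independent contrast to those genes. None of the 117 passed limma's threshold after hPTH(1-34), 0 higher and 0 lower, where 106 of all 23521 clusters were called. With so few calls in all, a count of 0 is no result about these genes, here or list by list below. Of the 117, 17 had an unadjusted p under 0.05, against 2189 of all 23521 clusters. Under the background limit with vehicle were 2 of the 20 glycerolipid synthesis genes, 5 of the 23 for fatty acid synthesis, 3 of the 17 for uptake, 1 of the 14 for droplets and 2 of the 22 for oxidation. After bPTH(7-34) 0 passed and 1 had an unadjusted p under 0.05. In the list of glycerolipid synthesis, the steps that lead up to diacylglycerol, 0 of 20 measured genes passed, with a median change of 0.09 against 0.00 over all genes. Its smallest p belonged to Gpat3, a glycerol-3-phosphate acyltransferase, at 0.41 ± 0.12 (SE, adjusted p = 0.253), from a vehicle level of 2.07 that is near background. Agpat4, of the next acylation step, gave 0.37 ± 0.13 (adjusted p = 0.418), and the lipid phosphatase Plpp1 gave -0.36 ± 0.13 (adjusted p = 0.420).

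In fatty acid synthesis and elongation, 0 of 23 passed (median 0.03). Elovl5, which lengthens polyunsaturated fatty acids, lay at 7.52 to 7.74 with vehicle and 8.13 to 8.83 with hPTH(1-34). It gave 0.90 ± 0.17 (limma adjusted p = 0.0756), and passed without hPTH(1-34) array 1, with array weights and in fits restricted to clusters whose mean log2 reached 3 or 5. Fasn, the fatty acid synthase, gave 0.40 ± 0.13 (adjusted p = 0.328), and Elovl4 0.41 ± 0.13 (adjusted p = 0.326), from a vehicle level of 2.14.

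In fatty acid uptake and activation, 0 of 17 passed (median 0.06). The carriers Fabp5, at 1.04 ± 0.23 (SE, adjusted p = 0.125), and Fabp4, at 0.85 ± 0.26 (adjusted p = 0.299), and the transport protein gene Slc27a3, at 0.74 ± 0.18 (adjusted p = 0.159), were the genes with the smallest p. Fabp5 passed without hPTH(1-34) array 1 and in the fit of clusters with a mean of at least 5, and Fabp4 with the array number as a fixed block but not as a random one.

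In the list of lipolysis and its regulators, 0 of 15 passed, with 5 positive changes and a median of -0.05. Pnpla2, Abhd5, Lipe and Mgll, all with positive changes, are not in this list. The lysosomal lipase gene Lipa gave -0.24 ± 0.12 (SE, adjusted p = 0.607), and the monoacylglycerol lipase gene Abhd6 -0.23 ± 0.18 (adjusted p = 0.749). Ces1g, between them by p, is among the 5 of the 15 genes under the background limit with vehicle, at 1.60, so its difference is not given. In the droplet coat and biogenesis list, 0 of 14 passed (median 0.06). Fitm2, which helps droplets bud, gave 0.60 ± 0.19 (adjusted p = 0.346), Plin1, the coat protein of fat cells, 0.54 ± 0.21 (adjusted p = 0.454), and Ldah -0.36 ± 0.13 (adjusted p = 0.399).

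In fatty acid oxidation, 0 of 22 passed (median -0.02). The nuclear receptor gene Ppard gave 0.54 ± 0.13 (SE, adjusted p = 0.148) and passed in the fit of clusters with a mean of at least 5, the coactivator gene Ppargc1a gave 0.42 ± 0.17 (adjusted p = 0.475), and Hadh, an enzyme of beta-oxidation, gave -0.19 ± 0.11 (adjusted p = 0.657). In the list set up for relatives of Dgat1 and Dgat2 and enzymes of retinyl esters, which Dgat1 can also make, 0 of 10 measured genes passed. With vehicle 5 of the 10 were under the background limit, so their signs and median are not read. Their smallest p was that of Hsd17b13 at -0.24 ± 0.16 (adjusted p = 0.701), from a vehicle level of 1.99 that is near background, followed by Lcat at -0.14 ± 0.12 (adjusted p = 0.770). Lcat was put in this list but is neither a relative of Dgat1 or Dgat2 nor a retinyl ester enzyme. Dgat2l6 came next but was under the background limit with vehicle, at 1.24. The list's closest relatives of Dgat1, Soat1 and Soat2, were not analysed here.

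**Figure D4:**
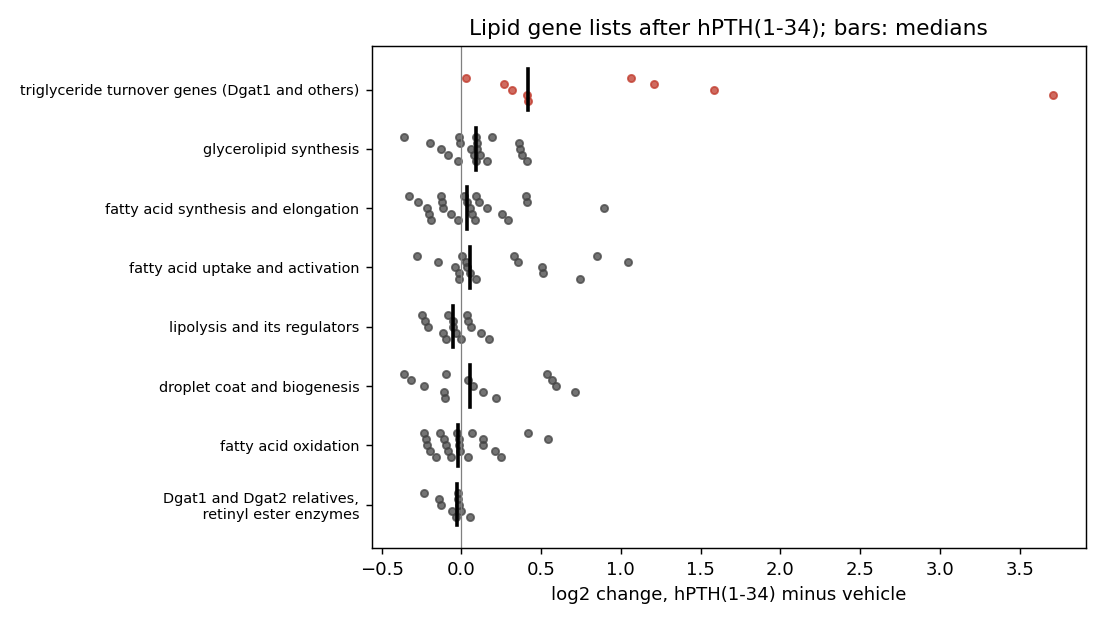
Log2 change after hPTH(1-34) against vehicle of the 9 triglyceride turnover genes (red) and of the genes of 7 wider lipid lists (grey), with the median of each row as a bar. There is 1 point per gene in each list, so Mogat1, Mogat2, Hsd17b13 and Pnpla3 are drawn in more than 1 list. Dgat1 lies at 3.71, and no gene of the wider lists is above Fabp5 at 1.04. The median of the red genes is 0.42, and the medians of the wider lists lie between -0.05 and 0.09. The wider lists leave out the genes in red.

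Genes that flank these 9 in the genome were also read, the nearest on each side with a cluster of its own. None of the 18 passed after hPTH(1-34), where 106 of 23521 clusters did. Their smallest adjusted p in limma was 0.517, that of Gm15032, which lay under the background limit with vehicle, at 1.02. Scd4, Wnt8b, Rplp2, Cracr2b, A730085K08Rik and Kbtbd12 were under that limit with vehicle too. No result is read from this count. Bop1 and Scrt1, which flank Dgat1 and are named for that after their values were seen, gave 0.08 ± 0.14 (SE) and 0.15 ± 0.09. The vehicle level of Scrt1, 1.86, is near background.

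The genes whose values over the 9 arrays ran most like those of Dgat1, among 9259 others whose mean log2 reached 3, predicted genes passed over, were Ugdh, Isy1, Csrp2, Eif4e and Tpcn2. Their Pearson correlation with Dgat1 was 0.989, 0.987, 0.985, 0.984 and 0.984. It is given as a measure of likeness alone, since the hPTH(1-34) arrays stand apart from the rest. Abhd5 came at rank 7 with 0.982, Acsl4 at rank 41 with 0.958 and Scd1 at rank 172 with 0.907. Mgll had 0.714, Pnpla2 0.36, Dgat2 0.299 and Plin2 -0.07. These 5 were chosen by likeness, so their differences between hPTH(1-34) and vehicle are a description: they were 2.12 ± 0.24 (SE) for Ugdh, which makes UDP-glucuronic acid, and 1.90 ± 0.20 for the splicing factor gene Isy1. The LIM protein gene Csrp2 gave 1.66 ± 0.16, the cap-binding translation factor gene Eif4e 0.99 ± 0.14 and Tpcn2, an ion channel of endolysosomes, 1.23 ± 0.12.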

How the data were processed

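The authors deposited log2 RMA expression per transcript cluster of Affymetrix Mouse Gene 2.0 ST arrays, made with Affymetrix Expression Console and RMA per the submitters' processing notes (versions not given in the sources used here) and rounded to 2 decimals. Of 41345 clusters, 23521 with 1 symbol were tested, 1814 had several symbols and 16010 none. limma 3.58.1 in R 4.3.3 (lmFit, eBayes, group as the only term, all 9 arrays) gave two-sided tests, Benjamini-Hochberg adjustment over all clusters within a comparison, a threshold of 0.05, standard errors and 95% intervals. The fit had 6 residual and 3.20 prior degrees of freedom. It was tested on simulated data, and precision is limited by the small number of arrays.

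The members, lists and rule for named genes were chosen with earlier results of these data known. The rule took all members, list genes past the threshold in any comparison or among the 3 of a list with the lowest p after hPTH(1-34), and the 5 genes most correlated with Dgat1. Predicted genes were passed over. Genes without a cluster of 1 symbol were not analysed here. Deviations from group means correlated at 0.0646 to 0.364 in 9 pairs of arrays of one number, 6 of them over 0.1, against -0.294 to 0.138 in 18 pairs of different numbers, 1 over 0.1. The rule asked for every same-number pair to exceed 0.1, which number 2 did not meet, so the number was not taken as pairing. Alternatives were blocks, other sets of clusters, normalisations, variance models, the 6 arrays of a comparison and each array left out. RefSeq tables (GRCm38.p6) gave neighbours and promoters. Plots used matplotlib 3.10.9 in Python 3.11.15.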

Additional observations from a re-analysis of the deposited data

How the results depend on the processing

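All 141 recomputed changes of the 9 genes after hPTH(1-34), from up to 16 other settings each (filters removed Lipe and Mgll), stayed within 1 pooled SD of the reported value, and so did all 141 against bPTH(7-34). This SD is wide for some genes: after hPTH(1-34), leaving out 1 array moved Dgat2 (0.41) from 0.125 to 0.81, Pnpla2 (0.27) from 0.03 to 0.60, Mgll (0.42) from 0.29 to 0.56 and Lipe (0.32) from 0.22 to 0.39. Plin2, near 0, changed sign in both, from -0.23 to 0.20 and from -0.245 to 0.185. Of 141 after bPTH(7-34), 11 changed sign, 2 came to 0 and 0 passed. Mgll was -0.0204 with quantile normalisation. Leaving out 1 array, Mgll ran from -0.07 to 0.075, Acsl4 from -0.20 to 0.15, Pnpla2 from -0.42 to 0.15, Plin2 from -0.08 to 0.13 and Dgat2 from -0.19 to 0.50. Synthesis minus breakdown after hPTH(1-34) was 0.47 without Dgat1. Clusters called for hPTH(1-34) against vehicle and against bPTH(7-34), 106 and 109, were 16 and 3 over all clusters, 186 and 215 with a mean log2 of at least 3, 182 and 211 with at least 5, 166 and 204 with array weights, and 0 and 0 from 6 arrays, with 1936 and 2066 at an unadjusted p under 0.05. Leaving out 1 array gave 0 to 259 and 2 to 262. Against vehicle it was 0 without vehicle array 2 or 3 (1798 and 1927 at an unadjusted p under 0.05), 3 and 2 without hPTH(1-34) array 2 or 3, and 259 without its array 1. Against bPTH(7-34) it was 3 without hPTH(1-34) array 2 or 3, 262 without its array 1, and 48, 2 and 3 without bPTH(7-34) array 1, 2 or 3. List genes called after hPTH(1-34) were 1 with the replicate block (Fabp4) but 0 with the number as a random block, 1 with a mean of at least 3 and with array weights (Elovl5), 3 with at least 5 (Elovl5, Fabp5 and Ppard), and 0 to 2 leaving out 1 array. Of the 23521 clusters, the replicate block called 112 and 116. With this block, which does not stand for a known pairing, the same 4 triglyceride genes passed against vehicle, and Scd1 passed as a 4th against bPTH(7-34). No member had a dimmer cluster to try. The smallest levels, of Lipe, limit what can be read of it.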
